A study of Mus musculus with 6 samples.

Results

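The 10 genes described here encode heat shock factor 1 and the main cytosolic heat shock proteins of the mouse. They are the factor gene Hsf1, the Hsp70 genes Hspa1a, Hspa1b and Hspa8, the Hsp90 genes Hsp90aa1 and Hsp90ab1, the Hsp110 genes Hspa4 and Hsph1, the Hsp40 gene Dnajb1 and the small heat shock protein gene Hspb1. They were chosen by name, through their Ensembl identifiers in GENCODE mouse release M21, and all 10 were found among the 16540 genes of the deposited table. RNA came from NIH-3T3 cells, an established line of mouse embryonic fibroblasts from the NIH/Swiss strain, and 6 libraries were sequenced. Per the labels, cells carrying lentiviral Cas9 and the guide PC sg2 (n = 2 libraries), cells with Cas9 and the guide PC sg5 (n = 2) and control cells with Cas9 and the guide R26 sg1 (n = 2) were compared. Puromycin at 2 ug/mL was the selection in every case, and cells were not cloned, so edited and unedited cells may be mixed in each library. All of them, the control included, had spent 48 h in DMEM with 0.2 mM L-glutamine and 10% dialyzed serum. PC stands for pyruvate carboxylase, encoded in mouse by Pcx, and the title of the series links this fibroblast enzyme to making collagen. Separate cultures are not stated for the 2 libraries of any guide. The p-values therefore cover the spread between these libraries alone, which may be technical.

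Heat shock proteins are chaperones that hold, fold or refold other proteins. Hsp70 proteins bind short unfolded stretches with ATP, J proteins such as the product of Dnajb1 deliver clients to them and start ATP hydrolysis, and Hsp110 proteins release ADP so that the cycle can start again. Hsp90 acts later, on nearly folded clients such as kinases and steroid receptors. When unfolded proteins accumulate, HSF1 is released from chaperones, forms trimers and binds heat shock elements, which are inverted repeats of the unit GAA in promoters. Hspa1a and Hspa1b are the classical inducible targets, while Hspa8 and Hsp90ab1 are the constitutive Hsp70 and Hsp90 genes.

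The promoters are shown because HSF1 acts through elements in promoters and because genes with the motif moved in both directions here. RefSeq promoter entries on GRCm38.p6 matched 6 of the 10 genes (Hspa1a, Hspa1b, Hspa4, Hsph1, Dnajb1 and Hspb1), and the 250 bases before each annotated transcript start were searched. The motif was a pair of units, GAANNTTC or TTCNNGAA, each of which reads the same on both strands. It was found in 4 of the 6 genes, where a gene counted if any of its entries matched. Of all 32851 promoter entries 12.8% had it, which is a share per entry and not per gene. The stricter forms with 3 units, GAANNTTCNNGAA and TTCNNGAANNTTC, were in 0.466% of entries and in none of these windows. The windows are printed 5′ to 3′ on the gene's strand with the motif in capitals. They lie at chr17:34972157-34972406 (minus strand) for Hspa1a, chr17:34959239-34959488 (minus strand) for Hspa1b, chr5:135887669-135887918 (plus strand) for Hspb1 and chr5:149636337-149636586 (minus strand) for Hsph1.
Hspa1a: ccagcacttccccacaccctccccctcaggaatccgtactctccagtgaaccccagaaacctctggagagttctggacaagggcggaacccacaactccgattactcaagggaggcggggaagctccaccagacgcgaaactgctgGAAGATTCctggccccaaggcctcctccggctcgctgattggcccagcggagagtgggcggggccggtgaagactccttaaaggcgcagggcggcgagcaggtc
Hspa1b: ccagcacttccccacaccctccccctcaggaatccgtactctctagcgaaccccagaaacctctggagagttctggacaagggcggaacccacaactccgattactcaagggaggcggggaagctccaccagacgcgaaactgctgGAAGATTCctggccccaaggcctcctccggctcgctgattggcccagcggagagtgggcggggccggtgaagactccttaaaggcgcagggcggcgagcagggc
Hspb1: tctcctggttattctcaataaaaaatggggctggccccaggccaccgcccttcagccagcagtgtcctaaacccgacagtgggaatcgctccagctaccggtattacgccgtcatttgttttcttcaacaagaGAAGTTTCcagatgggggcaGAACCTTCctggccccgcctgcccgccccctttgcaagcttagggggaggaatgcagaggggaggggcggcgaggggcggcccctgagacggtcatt
Hsph1: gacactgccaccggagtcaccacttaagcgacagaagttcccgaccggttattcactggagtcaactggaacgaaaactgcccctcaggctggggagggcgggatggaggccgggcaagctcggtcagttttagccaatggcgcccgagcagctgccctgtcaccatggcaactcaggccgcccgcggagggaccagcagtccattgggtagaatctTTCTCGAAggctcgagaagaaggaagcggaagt
The Hspa1a and Hspa1b windows are identical at 247 of 250 positions, so their matches are not independent. In both the motif starts 104 bases before the transcript start. Hspb1 has a pair of matches, which start 117 and 97 bases before its transcript start, and Hsph1 has 1, which starts 33 bases before the transcript start used for the printed window. A second RefSeq entry places the start of Hsph1 at 149636315, and the same match then starts 54 bases before it. A match is a run of letters and not a measured binding site.

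In the cells with PC guides 4 of the 10 genes rose (Hsp90aa1, Hspa4, Hsph1 and Dnajb1), 5 fell (Hspa1a, Hspa1b, Hspb1, Hspa8 and Hsp90ab1), and Hsf1 did not pass the test. The test was limma on log2(normalised count + 1) with Benjamini-Hochberg adjustment over all 16526 tested genes, with an adjusted p under 0.05 as the threshold, and fold changes are on that log2 scale. All 10 genes passed the filter on low values. Calls were common in this comparison, since over both guides 67.9% of all tested genes were past the threshold, 34.3% higher and 33.6% lower. A count of 9 called genes out of 10 is therefore read against that share. The PC and control libraries did not overlap for the same 9 genes, 4 higher and 5 lower, as for 73.2% of all tested genes (36.6% higher and 36.6% lower). The median log2 fold change was -0.14 over the 10 genes and -0.01 over all tested genes. None of the 10 genes changed 2-fold in either direction. Over all 16526 tested genes, 2944 were called and changed 2-fold. With only 10 genes, this difference is not read as a trait of them. Among the motif-bearing genes printed above, Hspa1a, Hspa1b and Hspb1 fell and Hsph1 rose, and of the genes searched without a match, Hspa4 and Dnajb1 rose.

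**Figure D1:**
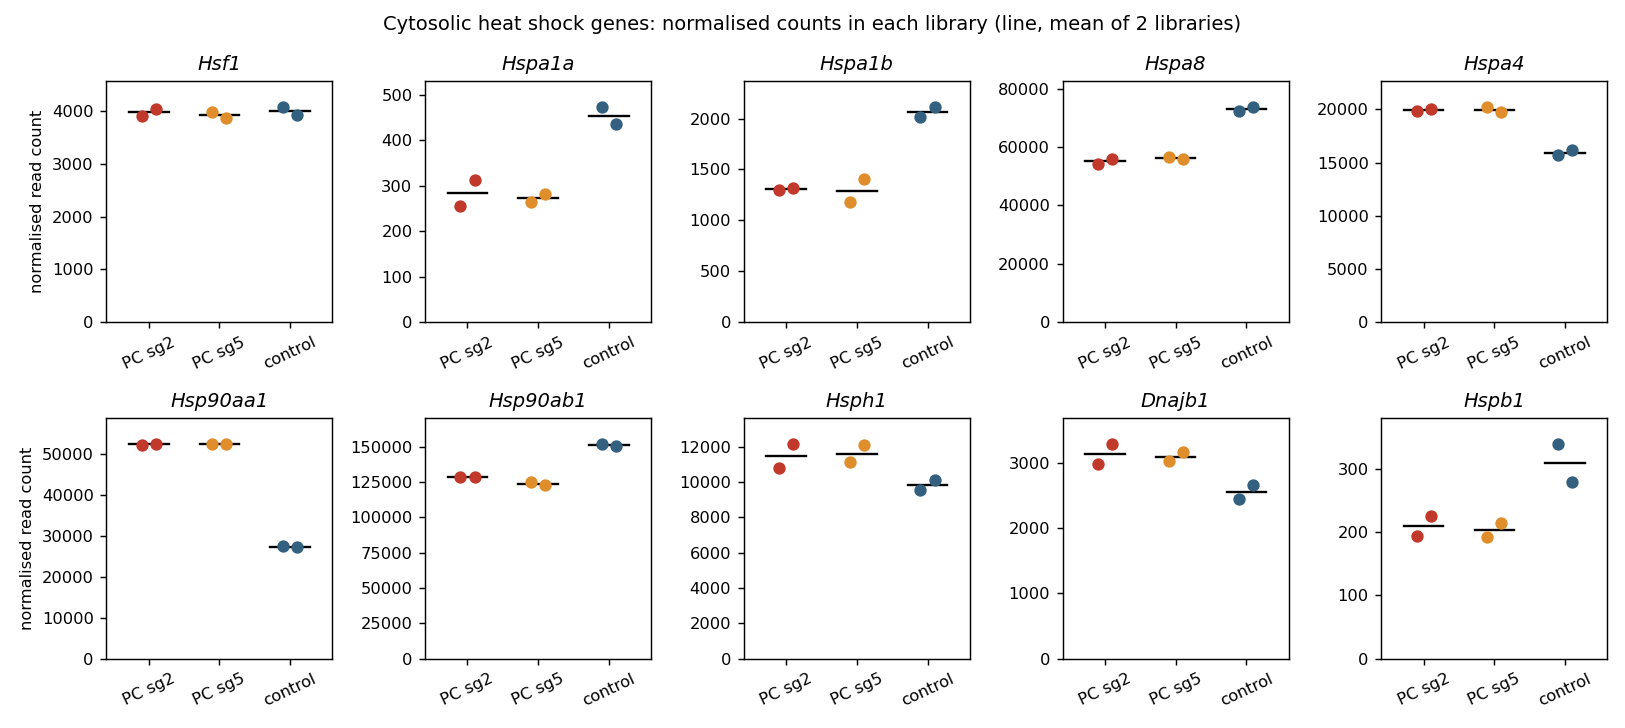
Normalised read count (vertical axis, linear from 0) of each of the 10 genes in every library, with PC sg2, PC sg5 and control from left to right and a line at the mean of each group's 2 libraries. Hsp90aa1 sits between 52081 and 52448 in the 4 PC libraries and at 27354 and 27235 in the controls, while the Hsf1 points of the groups overlap.

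Pcx, the target of the PC guides, fell. It had 316 and 375 normalised counts with PC sg2, 713 and 716 with PC sg5, and 2914 and 3015 in the control (log2 fold change -2.58 ± 0.07, SE, limma adjusted p = 4.30e-18). The recovered reads of the libraries ranged from 22895172 (PC sg5 replicate 2) to 71710049 (control replicate 2), and 3 reads are worth 2.18 to 6.41 normalised counts, which covers counting error only. Replicates differed by more than counting error, with a chi-square per degree of freedom of 4.01 for PC sg2, 3.08 for PC sg5 and 4.40 for the control. Mitochondrially encoded genes took 1.51% to 1.60% of the counts in PC libraries and 1.56% to 1.62% in controls. All 8 fibroblast markers looked for were present, all 8 fell, and their summed level was 510513 to 530787 in PC libraries and 1224502 to 1274698 in controls. Markers of other cell types were sparse, with Fabp4 for adipocytes at 2.14 to 10.1 against 17.9 to 20.3, Des for muscle at 11.7 to 26.3 against 72.3 to 90.6, Cdh1 for epithelium at 8.55 to 19.1 against 57.4 to 58.7, and Pecam1 for endothelium at 10.7 to 29.8 against 10.4 to 13.8 (PC libraries against controls). Each of these was 1 of 5 markers on its list, and the others, such as Adipoq, Myod1, Epcam and Cdh5, were not found among the genes of the deposited table. Of 7 leukocyte markers 4 had values, with a sum of 835 to 896 in PC libraries and 1316 to 1409 in controls. Cd14 made up most of that sum, with means of 663 in PC libraries and 889 in controls. Lyz2 (103 against 260) and Mpeg1 (21.2 against 145) also fell, while Cd68 (70.3 against 68.8) did not pass the test. The part of these shifts in the results below was not tested, and in bulk RNA fewer cells of a type and less RNA per cell cannot be told apart.

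The factor gene itself did not pass the test. Hsf1 (ENSMUSG00000022556, GRCm38 chromosome 15, 76477422 to 76501913, plus strand) had 3911 and 4052 normalised counts with PC sg2, 3978 and 3867 with PC sg5, and 4084 and 3932 in the control. The PC and control libraries overlapped. Taking the guides together, the log2 fold change was -0.02 ± 0.04 (SE), and it had a 95% confidence interval of -0.10 to 0.06 and a limma adjusted p of 0.642. HSF1 is controlled largely as a protein, by release from chaperones, trimer formation and phosphorylation, none of which RNA counts measure.

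The largest change of the 10 genes was in Hsp90aa1, the stress-inducible cytosolic Hsp90 (ENSMUSG00000021270, chromosome 12, 110690605 to 110702728, minus strand). It had 52081 and 52448 normalised counts with PC sg2, 52361 and 52226 with PC sg5, and 27354 and 27235 in the control. All 4 PC libraries lay above both controls and within a narrow band. The mean was 52279 ± 160 (SD, n = 4) in PC libraries and 27294 ± 84.0 (SD, n = 2) in controls, a 1.92-fold level and a log2 fold change of 0.94 ± 0.02 (SE, limma adjusted p = 5.55e-20). Among all tested genes, 20.9% had a larger absolute change.

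Its constitutive partner moved the other way. Hsp90ab1 (ENSMUSG00000023944, chromosome 17, 45567775 to 45573271, minus strand) had 128822 and 128806 normalised counts with PC sg2, 124984 and 122676 with PC sg5, and 152298 and 150334 in the control. Every PC library lay below both controls. The level in PC libraries was 83.5% of control, with a log2 fold change of -0.26 ± 0.02 (SE, limma adjusted p = 1.39e-11). This gene ranked 11th in mean abundance in the table, and its change depended on the scaling. With quantile normalisation, where a gene keeps its value as long as its rank stays, the log2 fold change was 0.02 and was not past the threshold (limma adjusted p = 0.212).

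Set side by side per length of exon under the deposited scaling, the pair of Hsp90 genes changed in make-up more than in sum. Hsp90aa1 made up 23.6% and 23.7% of the pair's normalised counts per kb with PC sg2, 24.2% and 24.5% with PC sg5, and 12.1% and 12.1% in the control. The share may be too low in every library, since 47.5% of the 50-base stretches of Hsp90aa1 occur in other genes, against 3.44% for Hsp90ab1. The shares of the groups did not overlap, and because a share is taken within a library its size factor cancels. The mean share was 24.0% ± 0.442 (SD, n = 4) in PC libraries and 12.1% ± 0.0649 (SD, n = 2) in controls. An exact two-sided permutation test, which doubles the smaller tail, gave p = 0.133, the smallest value this test can give for 4 against 2 libraries. The sum of both genes was 178601 ± 3033 normalised counts (SD, n = 4) in PC libraries and 178610 ± 1473 (SD, n = 2) in controls (exact two-sided permutation test, p = 1). Per kb of exon the sum was 55421 ± 1011 in PC libraries and 57399 ± 485 in controls, a ratio of 0.966. By that measure the groups did not overlap, with 54191 to 56292 in PC libraries and 57056 and 57742 in controls. The exact two-sided permutation test gave p = 0.133 for it, the smallest possible. Unlike the share, these sums depend on the size factors, and they were not taken under the other scalings.

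**Figure D2:**
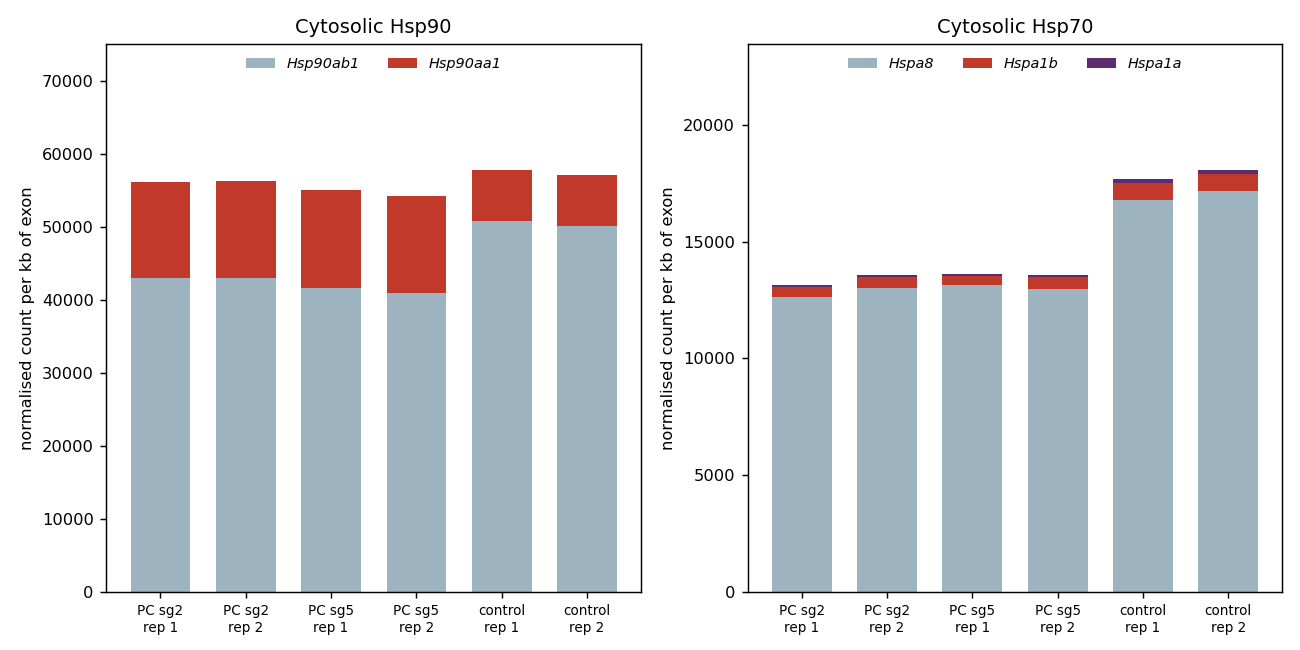
Stacked bars of normalised counts per kb of exon (vertical axis, from 0) in each library, for the cytosolic Hsp90 genes (left) and the Hsp70 genes Hspa8, Hspa1b and Hspa1a (right), with PC libraries left of controls. The Hsp90aa1 part is about 24.0% of the bar in PC libraries and 12.1% in controls, while the Hsp70 bars are shorter in all 4 PC libraries.

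The 3 cytosolic Hsp70 genes fell. Hspa1b (ENSMUSG00000090877, chromosome 17, 34956436 to 34959238, minus strand), an inducible gene, had 1293 and 1317 normalised counts with PC sg2, 1175 and 1409 with PC sg5, and 2015 and 2116 in the control. All PC libraries lay below both controls, at 62.9% of the control mean, with a log2 fold change of -0.67 ± 0.06 (SE, limma adjusted p = 3.03e-09). Its neighbour Hspa1a (ENSMUSG00000091971, chromosome 17, 34969190 to 34972156, minus strand) had 256 and 311 with PC sg2, 264 and 282 with PC sg5, and 474 and 435 in the control. The groups did not overlap here either, and the log2 fold change was -0.71 ± 0.11 (SE, limma adjusted p = 8.14e-06).

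Hspa1a and Hspa1b are near-identical copies, so the split of reads between them is uncertain. Of the 50-base stretches of Hspa1a transcripts 58.8% also occur in Hspa1b, and 62.3% of those of Hspa1b occur in Hspa1a. In addition, 19.0% of the exon bases of Hspa1a overlap other annotated genes, with Gm20481 as the largest overlap. Added together before the fit, the pair had 1549 and 1629 normalised counts with PC sg2, 1440 and 1691 with PC sg5, and 2489 and 2551 in the control. Their sum fell by 0.68 ± 0.06 on the log2 scale (SE, limma adjusted p = 6.18e-10), a value that does not turn on how counted reads were split between the copies.

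Hspa8, the constitutive Hsc70 that serves folding, uncoating of clathrin and chaperone-mediated autophagy (ENSMUSG00000015656, chromosome 9, 40800984 to 40810087, plus strand), carried most of the Hsp70 message. It had 54282 and 56003 normalised counts with PC sg2, 56474 and 55787 with PC sg5, and 72286 and 73799 in the control. All 4 PC libraries were below both controls, at 76.2% of the control mean. The log2 fold change was -0.39 ± 0.02 (SE, limma adjusted p = 1.64e-13). Other genes, the small nucleolar RNA gene Snord14e first among them, overlap 6.09% of its exon bases. The processed pseudogene Gm15459 shares 34.6% of its 50-base stretches and had 3062 to 3476 normalised counts in PC libraries and 4301 and 4311 in controls.

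The sum of Hspa1a, Hspa1b and Hspa8 stood at 13493 ± 218 normalised counts per kb (SD, n = 4) in PC libraries and 17873 ± 265 (SD, n = 2) in controls, a ratio of 0.755 (exact two-sided permutation test, p = 0.133, the smallest possible). Other Hsp70 genes, such as Hspa2, are counted with the relatives below and left out of this sum. The inducible pair took 4.16% and 4.23% of that sum with PC sg2, 3.73% and 4.40% with PC sg5, and 4.97% and 4.99% in the control. These shares may be too low, since more sequence is shared with other genes in Hspa1a and Hspa1b than in Hspa8.

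Both Hsp110 genes rose. Hspa4 (ENSMUSG00000020361, chromosome 11, 53259814 to 53300457, minus strand), which encodes a nucleotide exchange factor of Hsp70, had 19886 and 19999 normalised counts with PC sg2, 20246 and 19733 with PC sg5, and 15728 and 16157 in the control. Its PC libraries were all above both controls, 1.25-fold on average, with a log2 fold change of 0.32 ± 0.02 (SE, limma adjusted p = 9.52e-11). Hsph1, the heat-inducible Hsp110 (ENSMUSG00000029657, chromosome 5, 149614287 to 149636376, minus strand), had 10808 and 12171 with PC sg2, 11104 and 12079 with PC sg5, and 9550 and 10115 in the control. The groups did not overlap, but the replicates were wide apart next to the difference, which was 0.23 ± 0.04 on the log2 scale (SE, limma adjusted p = 3.18e-05). Without the intensity trend in limma the Hsph1 call was lost (adjusted p = 0.0557).

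The Hsp40 gene Dnajb1 rose with the Hsp110 genes. Dnajb1 (ENSMUSG00000005483, chromosome 8, 83608193 to 83612653, plus strand) encodes the J protein that works with Hsp70 in taking aggregates apart. It had 2983 and 3299 normalised counts with PC sg2, 3029 and 3168 with PC sg5, and 2449 and 2666 in the control. The lowest PC library exceeded the higher control, and the level in PC libraries was 1.22-fold that of control. The log2 fold change was 0.29 ± 0.05 (SE, limma adjusted p = 1.52e-05).

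Hspb1, the small heat shock protein known in mouse as Hsp25, fell. Hspb1 (ENSMUSG00000004951, chromosome 5, 135887919 to 135889563, plus strand) encodes a holdase that forms large oligomers and binds actin filaments. It had 194 and 225 normalised counts with PC sg2, 192 and 214 with PC sg5, and 340 and 279 in the control. The controls differed from each other by more than any 2 PC libraries did, yet both were above all PC libraries. The log2 fold change for both guides was -0.58 ± 0.13 (SE, limma adjusted p = 0.000541). Without control replicate 1 it was -0.44 (adjusted p = 0.0403), and the single-guide calls were then lost (limma adjusted p = 0.0769 for PC sg2 and 0.0506 for PC sg5). The pseudogene Hsp25-ps1 shares 48.8% of the 50-base stretches of Hspb1, so its reads may be incompletely assigned.

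**Figure D3:**
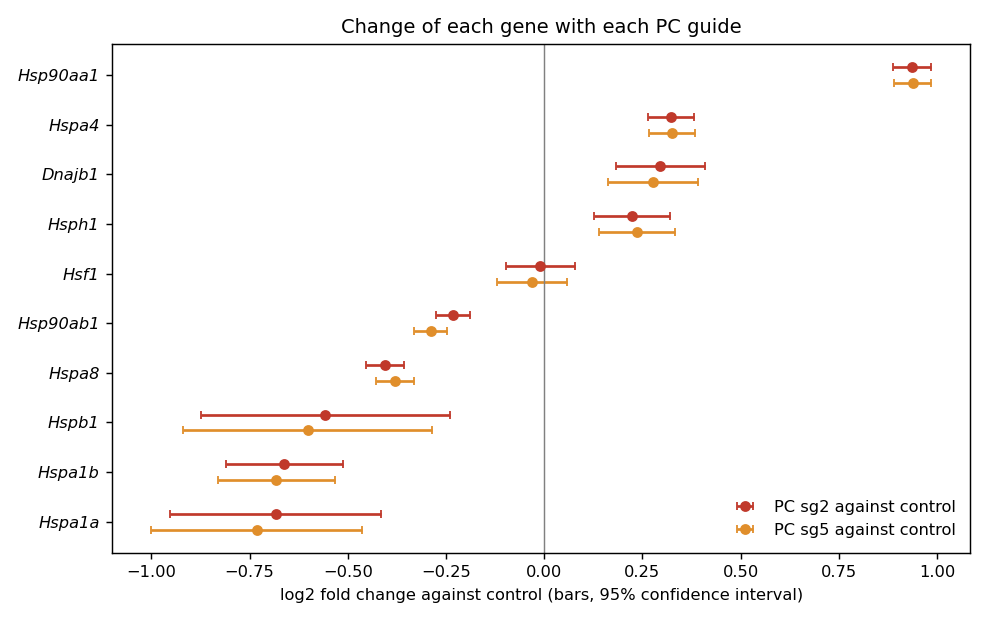
Log2 fold change against control (horizontal axis) of each gene with PC sg2 and with PC sg5, with bars for the 95% confidence interval from limma, both measured against the same 2 control libraries. Hsp90aa1 lies at 0.94 with each guide, Hsf1 straddles 0, and Hspa1a, Hspa1b and Hspb1 have the widest intervals among the genes that fell.

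Each guide was also set against the control by itself, since Pcx was higher with PC sg5 than with PC sg2. PC sg2 against control had 4 genes higher and 5 lower, beside 64.5% of all tested genes called, 32.9% higher and 31.6% lower. PC sg5 against control had 4 higher and 5 lower, beside 64.5% called, 32.6% higher and 31.8% lower. These comparisons share their controls. Hsp90aa1 had a log2 fold change of 0.94 ± 0.02 with PC sg2 and 0.94 ± 0.02 with PC sg5, and Hspa8 had -0.41 ± 0.02 and -0.38 ± 0.02 in that order (SE). In the direct test of PC sg5 against PC sg2, none of the 10 genes passed by limma or edgeR, where 0.242% of all tested genes passed by limma, 0.139% higher and 0.103% lower. DESeq2 gave an adjusted p for 5 of the 10 genes (Hspa8, Hspa4, Hsp90aa1, Hsp90ab1 and Hsph1), and none of these 5 passed. At an unadjusted p under 0.05 there was 1, Hsp90ab1, with a log2 difference of -0.06 ± 0.02 (SE, limma adjusted p = 0.296). Across the 10 genes the intervals of the difference reached at most 0.36 in either direction, for Hspb1, so smaller differences between the guides could be missed. For Hsp90aa1 the 95% interval was -0.05 to 0.05. Replicates also differed in a shared direction for some genes. Replicate 2 had more normalised counts than replicate 1 in all 3 groups for 3 of the 10 genes, Hspa1b, Hsph1 and Dnajb1, as for 14.2% of all tested genes. Replicate 1 had more in all 3 groups for 1, Hsp90ab1, as for 13.8%.

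Per length of exon, the level of the genes spanned 449-fold in PC libraries and 329-fold in controls. Hsp90ab1 was highest in both, at 42121 ± 1010 normalised counts per kb (SD, n = 4) in PC libraries and 50456 ± 463 (SD, n = 2) in controls. Next in PC libraries came Hsp90aa1 at 13299 ± 40.8 and Hspa8 at 12936 ± 220. In controls the order of this pair was reversed, with Hspa8 at 16983 ± 249 and Hsp90aa1 at 6943 ± 21.4. Hspa4, Hsph1 and Dnajb1 followed in both groups. Hsf1 (557 ± 11.4) stood above Hspa1b (463 ± 34.2) in PC libraries, while in controls Hsf1 (565 ± 15.1) stood below Hspa1b (737 ± 25.5), and Hspb1 and Hspa1a came last in both. Neighbours in this order did not overlap in any library of the same group. These levels divide by all annotated exon bases and may be lowered where copies share sequence. For Hsp90aa1 this concerns 47.5% of its 50-base stretches, mostly with the pseudogene Gm12346 (147 to 193 normalised counts in PC libraries and 110 to 115 in controls). It concerns 66.3% in Hspa1a, 62.3% in Hspa1b, 50.1% in Hspb1 and 39.4% in Hspa8, but 0% in Hsf1, Hspa4 and Hsph1. Gaps between close neighbours, and the low places of Hspa1a, Hspa1b and Hspb1, are therefore uncertain.

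The genes whose pattern over the 6 libraries was most like that of Hsp90aa1 were Tcea1, Kansl2 and Asna1. Likeness was the root mean square difference of log2 values centred on each gene's mean, and it was 0.016, 0.021 and 0.021 in that order. Tcea1, which encodes a transcription elongation factor, averaged 14756 normalised counts in PC libraries and 7618 in controls. Kansl2 averaged 12082 and Asna1 8272 in PC libraries, against 6193 and 4361 in controls. The 10 genes together had 274599 ± 2993 normalised counts (SD, n = 4) in PC libraries and 286823 ± 346 (SD, n = 2) in controls, a ratio of 0.957 with no overlap between the groups (exact two-sided permutation test, p = 0.133, the smallest possible). As a share they took 0.556% ± 0.0040 of all normalised counts (SD, n = 4) in PC libraries and 0.553% ± 0.0015 (SD, n = 2) in controls, and here the groups overlapped (exact two-sided permutation test, p = 0.4).

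Partners of Hsp90 mostly rose. Of 19 Hsp90 co-chaperone genes tested, 13 rose, 3 fell and 3 missed the threshold, and the median log2 fold change was 0.25. The steroid receptor immunophilin gene Fkbp4 averaged 13953 normalised counts in PC libraries and 7000 in controls (log2 fold change 0.99 ± 0.03, SE). Its relative Fkbp5, a known glucocorticoid-induced gene, went the other way, with 1617 in PC libraries against 3745 in controls (-1.21 ± 0.05). Every partner or relative given with a log2 fold change here and below had a limma adjusted p of at most 0.00406, except Hsbp1l1, and the counts stand beside 34.3% of all tested genes higher and 33.6% lower.

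Partners of Hsp70 were mixed by class. Of 18 listed J protein genes other than Dnajb1, 13 rose, 1 fell and 4 did not pass (median 0.26). Dnajc2, whose product works at the ribosome, averaged 4260 in PC libraries and 1803 in controls (1.24 ± 0.04), and Dnajb4, close in sequence to Dnajb1, averaged 2420 and 2784 in that order (-0.20 ± 0.04). Of 9 genes of nucleotide exchange factors and other Hsp70 co-chaperones 4 rose, 2 fell and 3 did not pass (median 0.09). Bag1 and Bag2 had log2 fold changes of 0.54 ± 0.04 and 0.63 ± 0.05, while the stress-inducible Bag3 fell by 0.37 ± 0.04.

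Other relatives of the Hsp70 and Hsp110 families had 1 of 7 genes higher, 3 lower and 3 not past the threshold (median -0.50). The 1 that rose was Hspa4l, another cytosolic Hsp110, with 8772 and 8652 normalised counts with PC sg2, 8619 and 8537 with PC sg5, and 2578 and 2629 in the control (1.73 ± 0.03, SE). The log2 fold changes of Hspa4 and Hsph1 were 0.32 and 0.23. The 3 that fell were Hspa12b (-1.11 ± 0.05) and, chosen after their values were seen, Hspa2 (-0.67 ± 0.07) and Hspa12a (-0.74 ± 0.12). Small heat shock protein genes other than Hspb1 had 1 of 5 higher, 2 lower and 2 not past (median -0.51). Cryab, the alphaB-crystallin gene, averaged 1747 in PC libraries and 3733 in controls (-1.10 ± 0.04), with 17.0% of its exon bases overlapping other genes, Hspb2 first among them, and Hspb8 rose by 0.20 ± 0.06.

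Among 6 genes of the HSF family and regulators of HSF1 4 rose, 1 fell and 1 did not pass (median 0.27). Sirt1, a deacetylase that keeps HSF1 bound to DNA, averaged 2172 in PC libraries and 1031 in controls (1.07 ± 0.05), and Hsf2, named after its value was seen, 1165 and 680 in that order (0.77 ± 0.06). Hsbp1 and Fbxw7, also named after their values were seen, rose by 0.18 ± 0.03 and 0.35 ± 0.06. The list was not sorted by whether a gene aids or restrains HSF1, and whether HSF1 activity changed was not tested. Hsbp1l1 had few reads, with a mean of 11.3 in PC libraries and 25.7 in controls (-1.15 ± 0.49, limma adjusted p = 0.0451), and it missed the threshold under both other scalings (adjusted p = 0.0714 and 0.0532). Of 7 heat-inducible genes that encode no cytosolic chaperone 5 rose and 2 fell (median 0.44). Zfand2a, a proteasome-associated gene known to be induced by arsenite and heat, averaged 4610 in PC libraries and 1627 in controls (1.50 ± 0.04). Serpinh1, the collagen chaperone of the endoplasmic reticulum, averaged 35712 and 53991 in that order (-0.60 ± 0.03).

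Chaperones of mitochondria and the endoplasmic reticulum and the cytosolic chaperonin were also counted. Of 11 mitochondrial chaperone and protease genes 10 rose and 1 fell (median 0.77), with Grpel2 at 1.16 ± 0.04, the chaperonin gene Hspd1 at 0.96 ± 0.02 and Trap1, the mitochondrial Hsp90, at -0.24 ± 0.04. Of 8 subunit genes of TRiC, the cytosolic chaperonin for actin and tubulin, 6 rose and 2 did not pass (median 0.33), with Cct3 at 0.64 ± 0.02 and Cct4 at 0.21 ± 0.03. Endoplasmic reticulum chaperones had 5 of 12 genes higher, 4 lower and 3 not past (median -0.02), with the Hsp70 gene Hspa5 at 1.53 ± 0.02 and the lectin gene Calr at -0.57 ± 0.02. These medians are descriptions, and no test of one group against another was made.

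**Figure D4:**
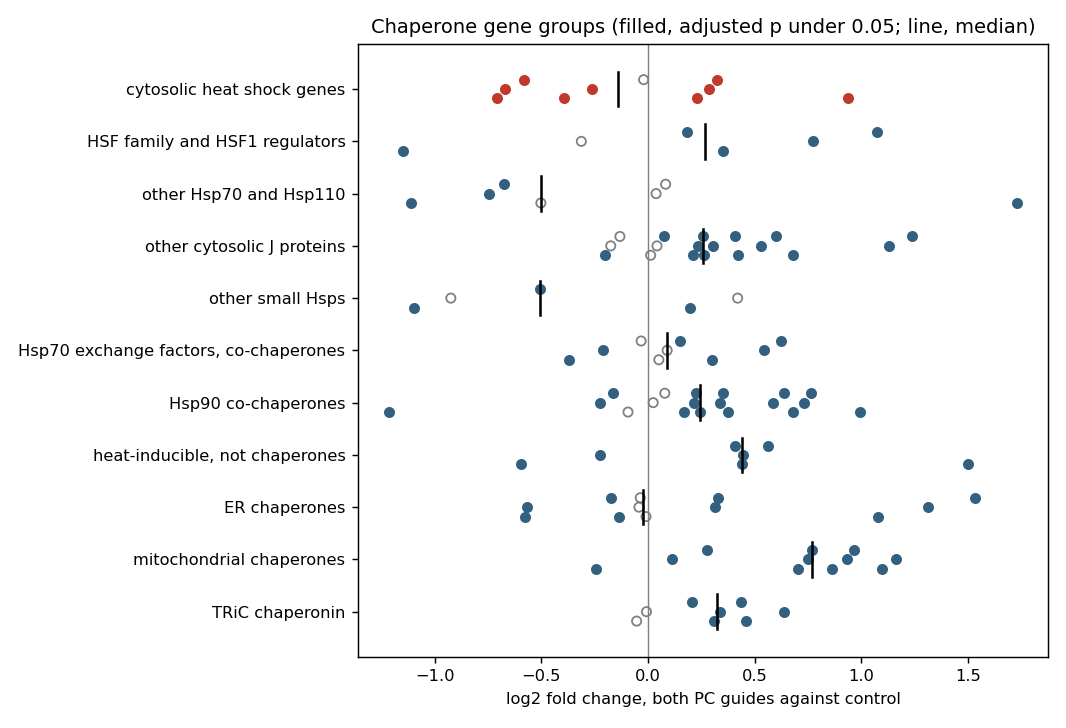
Log2 fold change of both PC guides against control (horizontal axis) for every tested gene of each chaperone group, with filled points past the adjusted p threshold of 0.05, open points not past it, and a line at the group's median. The 10 cytosolic heat shock genes lie on both sides of 0, whereas 10 of 11 mitochondrial chaperone genes lie to its right.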

How the data were processed

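The authors deposited normalised read counts per gene for the 6 libraries, a signal obtained by dividing reads by a library's size factor. Build GRCm38 and the tools STAR, featureCounts, DESeq2, Trimmomatic and bcl2fastq 2.17 are listed in the submitters' processing notes. Per the labels, RNA was isolated with Trizol and poly-A selected. Their settings, the annotation and the use of strand: not given in the sources used here. Values above 0 were whole multiples (tolerance 0.01) of what 1 read is worth in 100% of cases, so reads were recovered, and size factors recomputed from them equalled those of the steps. Of 16540 identifiers 16498 received a symbol from GENCODE M21.

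Tested genes had 10 or more normalised counts in 2 or more libraries (16526 genes, with 14 left out). The test was limma 3.58.1 (R 4.3.3) on log2(normalised count + 1), fitting the 3 groups in 1 model with a trend on intensity. It was two-sided, with Benjamini-Hochberg adjustment, and the script was tested on simulated data. Alternatives were edgeR 4.0.16 (quasi-likelihood, TMM) and DESeq2 1.42.0 on recovered reads, pseudocounts 0.5 and 10, no filter or a mean of at least 50, quantile normalisation, size factors from total reads outside the 50 most abundant genes, no trend, a replicate block, Hspa1a and Hspa1b summed, and each library left out. On recovered reads edgeR called 11424 genes for both guides. Named genes are the 10 genes, Pcx and, from each list, the called genes with the highest change, the lowest change and the smallest p. The genes and lists were chosen with earlier results of these data known.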

Additional observations from a re-analysis of the deposited data

Results flagged for a closer look

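Pcx, the target of both PC guides, differed between the guides in the direct test. It averaged 715 ± 2.04 normalised counts (SD, n = 2) with PC sg5 and 345 ± 42.2 (SD, n = 2) with PC sg2, a log2 difference of 1.05 ± 0.08 (SE, limma adjusted p = 6.60e-07), with both PC sg5 libraries above both PC sg2 libraries.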

How the results depend on the processing

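For both guides against control, Hsp90aa1, Hspa4, Dnajb1, Hspa1b, Hspa8 and Hspb1 kept their direction and call under every alternative run, as did Hspa1a wherever it was fitted by itself. Without 1 library Hsp90aa1 stayed between 0.93 and 0.94, Hspa8 between -0.41 and -0.38, and Hspb1 between -0.72 and -0.44. Under quantile normalisation Hsp90ab1 was at 0.0218, and at 0.0291 with PC sg2 and 0.0145 with PC sg5 alone, and 3 genes were lower with PC sg2. There Hspb1 with PC sg2 was not called (adjusted p = 0.0613). Without the 50 most abundant genes in the size factors, Hsf1, never called, was at 0.0241, and at 0.0294 with PC sg2 and 0.0188 with PC sg5. Leaving out 1 library took Hsf1 to between -0.0477 and 0.00703 for both guides and between -0.0370 and 0.0177 for PC sg2. The cause of these shifts was not tested.

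For PC sg5 against PC sg2, 40 genes were called, against 68 with edgeR, 91 with DESeq2, 65 with a pseudocount of 10, 65 with a mean of at least 50 counts, 0 by limma without the intensity trend (1241 at an unadjusted p under 0.05), and 10 to 218 without 1 library: 14 and 10 without PC sg2 replicate 1 or 2, 218 without PC sg5 replicate 1, and 26 without either control. None of the 10 genes was called in any of these, but DESeq2 gave no adjusted p for 5 of them (Hsf1, Hspa1a, Hspa1b, Dnajb1 and Hspb1), which could not be called there. Without 1 library their differences ran from -0.0469 to 0.00410 (Hsf1), -0.190 to 0.0945 (Hspa1a), -0.151 to 0.110 (Hspa1b), -0.0152 to 0.0218 (Hspa4), -0.00426 to 0.00586 (Hsp90aa1), -0.0716 to 0.0997 (Hsph1), -0.0908 to 0.0545 (Dnajb1) and -0.152 to 0.0628 (Hspb1). With the replicate number as a block 160 genes were called, and the block changed no call of the 10 genes. Replicate differences correlated across all tested genes at 0.0307, -0.0219 and 0.0251 between groups. A shift shared by a smaller set of genes could be missed by such a correlation. Whether the replicate numbers mark a shared batch was therefore not settled.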
